A study of Mus musculus with 6 samples.

Results

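The complement components described here are 9 genes, *C1qa*, *C1qb*, *C1qc*, *C2*, *C3*, *C4b*, *C7*, *Cfb* and *Cfd*, chosen by symbol from the 53342 genes of the expression table, and each symbol matched 1 row. RNA sequencing was carried out on dental pulp from 3-month-old C57BL/6 mice, with 3 WT samples (replicates 2, 4 and 5) and 3 Mmp13-/- samples (replicates 1, 2 and 6), each an independent biological sample per the methods of the study. Mmp13-/- mice lack the collagenase MMP13 throughout the body, so the comparison between genotypes does not separate pulp from other tissues. Sample labels name molars as the source of the pulp and the methods of the study name incisors, and both are recorded here without a choice between them.

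Complement is a cascade of plasma and tissue proteins that tags particles for removal. C1q, built of A, B and C chains, starts the classical pathway by binding antibody or cell debris, C4 and C2 form the first enzyme that cleaves C3, and factors B and D amplify that cleavage in the alternative pathway. C7 belongs to the terminal pathway, which assembles a pore in the target membrane. The liver makes most circulating complement, tissue macrophages are the main source of C1q, and adipocytes of factor D (adipsin). Dental pulp cells and resident macrophages are known to make complement proteins locally.

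*Mmp13* itself had 1069, 1139 and 827 counts in WT samples and 10.2, 32.9 and 40.4 counts in Mmp13-/- samples, a log2 fold change of -4.96. Library totals were 28442936 to 29980236 counts in WT and 21561420 to 26547121 in Mmp13-/-. Transcripts made of major satellite repeat took 0.0331% to 0.0445% of the counts in WT but 5.87%, 10.3% and 46.1% in Mmp13-/- replicates 1, 2 and 6, so replicate 6 stood apart from the others. Change between genotypes also varied with GC content over all tested genes, from a median log2 fold change of 0.81 in genes of up to 45% GC to -0.74 in genes above 55%. Values of the 9 components are therefore given with and without a correction for these features.

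The 3 C1q genes lie side by side on the minus strand of chromosome 4 (GRCm38) within 18.7 kb, *C1qb* at chr4:136880129-136886187, *C1qc* at chr4:136889804-136893065 and *C1qa* at chr4:136895917-136898803. *Cfb* (chr17:34856374-34862518) and *C2* (chr17:34862604-34898265) are neighbors on the minus strand of chromosome 17, where *C4b* (chr17:34728380-34743882) and *C3* (chr17:57203970-57228136) also lie. *C7* is at chr15:4988762-5063740 on the minus strand and *Cfd* at chr10:79890853-79892655 on the plus strand. RefSeq promoter windows (GRCm38.p6, 250 bases before to 50 after the gene start) matched 5 of the 9 genes, namely *C1qb*, *C1qc*, *C3*, *C7* and *Cfd*. *C1qa*, *C2*, *C4b* and *Cfb* had no entry. Promoters of *C1qb* (chr4:136886151-136886450), *C1qc* (chr4:136892865-136893164) and *C3* (chr17:57228087-57228386), all on the minus strand, are shown because the first pair belong to 1 gene cluster and are compared as a ratio, and *C3* was the most abundant component on the scale of counts. Capitals mark matches on either strand to 5 motifs of factors and elements known at complement or macrophage promoters.
C1qb: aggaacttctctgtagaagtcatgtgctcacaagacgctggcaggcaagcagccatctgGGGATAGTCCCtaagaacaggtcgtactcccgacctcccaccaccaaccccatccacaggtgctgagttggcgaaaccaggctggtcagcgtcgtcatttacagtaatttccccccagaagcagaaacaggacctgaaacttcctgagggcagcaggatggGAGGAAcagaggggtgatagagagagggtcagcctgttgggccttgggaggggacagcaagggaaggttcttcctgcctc
C1qc: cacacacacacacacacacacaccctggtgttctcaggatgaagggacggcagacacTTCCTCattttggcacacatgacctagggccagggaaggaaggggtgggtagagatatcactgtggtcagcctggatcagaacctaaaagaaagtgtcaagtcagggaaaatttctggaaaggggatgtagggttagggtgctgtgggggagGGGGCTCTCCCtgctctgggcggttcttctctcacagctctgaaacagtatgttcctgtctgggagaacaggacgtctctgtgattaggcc
C3: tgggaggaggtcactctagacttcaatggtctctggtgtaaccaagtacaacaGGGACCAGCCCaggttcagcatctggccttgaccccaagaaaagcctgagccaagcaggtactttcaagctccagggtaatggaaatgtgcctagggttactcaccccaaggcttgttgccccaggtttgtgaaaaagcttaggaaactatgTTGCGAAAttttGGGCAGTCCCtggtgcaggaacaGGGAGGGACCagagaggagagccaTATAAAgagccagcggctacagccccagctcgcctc
The motif letters searched were GAGGAA for the macrophage factor PU.1, TTGCNNAA for C/EBP, GGG and CC with 5 bases of any kind between them for NF-kappaB, TTCNNNGAA for STAT and TATAAA for the TATA box, and matches that overlap were counted separately. The *C1qb* window held 1 PU.1 match, with its first base at position -30 from the gene start, and the *C1qc* window held 1 at -193, against 28.3% of all 32851 promoters with at least 1. The *C3* window held 1 C/EBP match at -45 and 1 TATA box match at 14, after the gene start. At least 1 such match is held by 10.8% and 13.6% of promoters. NF-kappaB matches numbered 2, 2 and 4 in *C1qb*, *C1qc* and *C3*, with at least 1 in 50.8% of promoters. The *C7* window held 1 STAT match (8.30% of promoters) and 1 TATA box match at -6. A match is a description of the letters in the window.

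All 9 components were detected in the pulp samples of both genotypes and passed the filter on low counts, and in the counts as deposited none was called between Mmp13-/- and WT. A gene was called at an adjusted p under 0.05 (edgeR's quasi-likelihood test, Benjamini-Hochberg over all 24534 genes tested) and a change over 2-fold, and 30.1% of all tested genes were called. At any fold, 0 of the 9 passed against 51.6% of tested genes, and 1 (*C3*) had an unadjusted p under 0.05, as did 57.7% of tested genes. DESeq2 and limma on the deposited log2 values also called 0 of 9, where they called 31.2% and 31.8% of tested genes. Without a filter 1 of 9 (*Cfd*) was called, against 28.8%. The 95% interval of the log2 fold change lay inside 2-fold either way for 7 of 9, all but *C7* and *Cfd*, against 31.1% of tested genes. The median log2 fold change of the 9 was -0.04, against 0.10 over all tested genes. Genotypes did not overlap for 1 of 9, *C1qb*, against 60.9% of tested genes. These counts depend on the treatment of GC content. With each library corrected for it, *C1qb* and *C3* were called higher in Mmp13-/- (2 of 9, against 19.4% of tested genes), 5 of 9 passed at any fold (37.0% of tested genes) and the median of the 9 was 0.67 (0.21 over all tested genes).

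**Figure D1:**
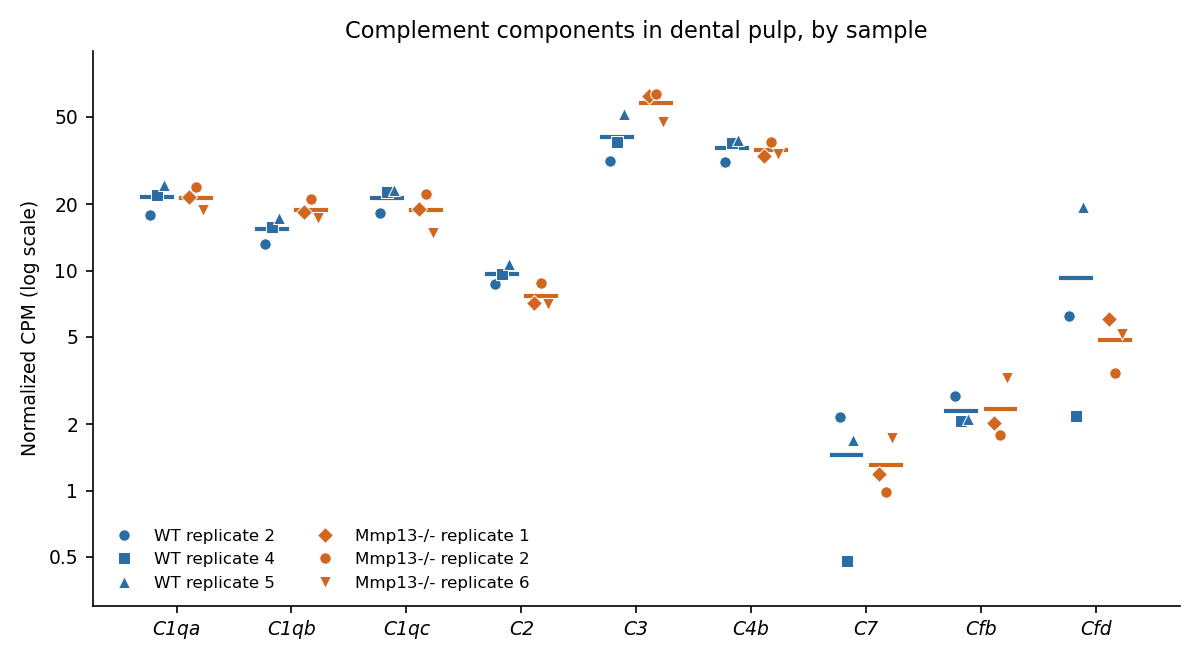
Normalized counts (CPM, log scale) of each complement component in the 3 WT (blue) and 3 Mmp13-/- (orange) samples, with a marker shape for each replicate number and a line at each group mean. Groups overlap for every gene but C1qb, whose lowest Mmp13-/- value of 17.4 lies just above the highest WT value, and the WT samples of Cfd spread over 8.91-fold.

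No chain of C1q passed the test as counted. In counts per 1000000 counts of the TMM-scaled library (CPM), *C1qa*, the A chain, had 17.9, 22.2 and 24.6 in WT and 21.5, 24.0 and 18.9 in Mmp13-/-. Both genotypes covered the same range, and the log2 fold change was -0.003 ± 0.16 (SE, n = 3 per genotype; 95% interval -0.37 to 0.36; edgeR adjusted p = 0.989). *C1qb*, the B chain, had 13.2, 15.8 and 17.4 CPM in WT and 18.4, 21.1 and 17.4 in Mmp13-/-, with every Mmp13-/- sample above every WT sample by a narrow margin. Its log2 fold change was 0.29 ± 0.16 (edgeR adjusted p = 0.140). *C1qc*, the C chain, had 18.2, 22.9 and 23.3 CPM in WT and 19.1, 22.4 and 14.9 in Mmp13-/-, lowest in replicate 6, with a log2 fold change of -0.19 ± 0.18 (edgeR adjusted p = 0.405).

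Because the chains are assembled in equal number, their ratio within a sample was compared per length (CPM per kilobase of all annotated exons of a gene together, RPKM). That length was 1040 bases for *C1qa*, 1088 for *C1qb* and 1931 for *C1qc*. It sets the level of each ratio but not the difference in log2 ratio between genotypes. *C1qb* over *C1qc* was 1.29, 1.23 and 1.33 in WT and 1.71, 1.67 and 2.08 in Mmp13-/-, so that the genotypes did not overlap and the mean log2 ratio was 0.50 higher in Mmp13-/-. *C1qa* over *C1qb* was 1.41 to 1.48 in WT and 1.14 to 1.22 in Mmp13-/-, and *C1qa* over *C1qc* 1.80 to 1.96 and 1.99 to 2.37. Each of the 3 ratios separated the genotypes. The levels of 60.9% of all tested genes taken singly did so too, but this is an unlike measure, and the share over ratios of other gene pairs was not determined. The exact two-sided permutation p was 0.1 for each ratio, the smallest that 3 against 3 samples allow (0.1 after adjustment over the 3 pairs). The 3 ratios are not independent, since any 2 of them fix the other. GC content was 57.4% for *C1qb*, 57.5% for *C1qc* and 59.5% for *C1qa*. After the GC correction the log2 ratio of *C1qb* over *C1qc* was 0.49 higher in Mmp13-/-. The difference in log2 ratio (Mmp13-/- minus WT) moved from -0.30 to -0.16 for *C1qa* over *C1qb*. For *C1qa* over *C1qc* it moved from 0.20 to 0.33. The ratios were chosen after the data were seen, and no test of them can pass at this sample size. The chains share no sequence of 31 bases with each other.

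Downstream in the classical pathway, *C4b*, which encodes the C4 protein, had 31.3, 37.9 and 39.2 CPM in WT and 33.4, 38.4 and 33.9 in Mmp13-/-. Its genotypes overlapped fully, with a log2 fold change of -0.04 ± 0.14 (95% interval -0.35 to 0.28; edgeR adjusted p = 0.849). Of its 31-base words 48.3% also occur in the near copy *C4a*, so reads could be split between them, and *C4a* itself had 2.80 to 3.95 CPM in WT and 3.61 to 5.54 in Mmp13-/-. *C2*, the protease that partners C4, had 8.72, 9.62 and 10.7 CPM in WT and 7.14, 8.79 and 7.03 in Mmp13-/-. Mmp13-/- replicate 2 reached into the WT range while both other Mmp13-/- samples lay below it, and the log2 fold change of -0.33 ± 0.17 did not pass (edgeR adjusted p = 0.126).

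*C3*, on which all pathways converge, was the component with the largest CPM and the nearest to a call. It had 31.4, 38.4 and 51.7 CPM in WT and 62.2, 63.4 and 47.7 in Mmp13-/-. Replicates 1 and 2 of Mmp13-/- lay above every WT sample and replicate 6 below WT replicate 5. The log2 fold change was 0.51 ± 0.20 (95% interval 0.07 to 0.96; edgeR adjusted p = 0.0526). Without Mmp13-/- replicate 6 the change was 0.64 and passed at any fold (edgeR adjusted p = 0.0246), and without WT replicate 5 it was 0.65 (edgeR adjusted p = 0.0330), but without WT replicate 2 it was 0.29 (edgeR adjusted p = 0.297).

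The alternative pathway was represented by factor B and factor D. *Cfb* (factor B, the alternative-pathway counterpart of C2) had 2.70, 2.07 and 2.12 CPM in WT and 2.03, 1.80 and 3.24 in Mmp13-/-. Replicate 6 was the highest of all samples, and the log2 fold change was 0.02 ± 0.30 (edgeR adjusted p = 0.952). The background rate measured over 1434 odorant and vomeronasal receptor genes, which pulp should not transcribe, would account for 24.1% of the *Cfb* counts in replicate 6 against 0.421% to 0.469% in WT. An annotated gene, *Gm20547*, overlaps *C2* and *Cfb* on the same strand and contains 75.5% of the 31-base words of *Cfb* and 40.2% of those of *C2*. It carried 182 to 201 counts in WT and 103 to 213 in Mmp13-/-, more than *Cfb* itself, so both genes' levels are uncertain. With its counts added, the log2 fold change was -0.03 ± 0.15 for *Cfb* (edgeR adjusted p = 0.866) and -0.21 ± 0.15 for *C2* (edgeR adjusted p = 0.251). *C2* also overlaps *Zbtb12* on the opposite strand, and reads of such a pair cannot be told apart where counting ignores strand, on which the sources used here say nothing.

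*Cfd* (factor D, the protease that cleaves factor B) was the most variable component. It had 6.24, 2.18 and 19.4 CPM in WT and 6.02, 3.42 and 5.14 in Mmp13-/-. The spread of WT samples was 8.91-fold and that of Mmp13-/- samples 1.76-fold, and all Mmp13-/- values lay within the WT range. Its change of -0.93 ± 0.60 on the log2 scale had an interval from -2.27 to 0.42 (edgeR adjusted p = 0.223). The value rested on single WT samples. It was -1.44 and called without replicate 4 (edgeR adjusted p = 0.0260) but 0.14 without replicate 5 (edgeR adjusted p = 0.810).

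*C7*, of the terminal pathway, was the lowest component, with 63.0, 14.0 and 46.6 counts in WT and 37.7, 29.7 and 30.0 in Mmp13-/-. In CPM these were 2.17, 0.480 and 1.69 in WT, where replicate 4 was 4.52-fold below replicate 2, and 1.19, 0.990 and 1.73 in Mmp13-/-. Its change of -0.16 ± 0.51 on the log2 scale had an interval from -1.30 to 0.98 (edgeR adjusted p = 0.809), so a 2-fold decrease was within the error. The background rate would account for 10.7%, 15.8% and 42.8% of the *C7* counts in Mmp13-/- replicates 1, 2 and 6 and at most 1.92% in WT.

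Compared per length (RPKM), *C1qa* led in both genotypes, at 20.7 ± 3.26 in WT and 20.7 ± 2.41 in Mmp13-/- (SD, n = 3 each). In WT it was followed by *C1qb* (14.2 ± 1.93), *C1qc* (11.1 ± 1.45), *Cfd* (10.1 ± 9.76), *C3* (7.88 ± 2.01), *C4b* (6.35 ± 0.745), *C2* (2.50 ± 0.256), *Cfb* (0.814 ± 0.123) and *C7* (0.541 ± 0.326). The ranges over WT samples of *C1qc* and *Cfd*, *Cfd* and *C3*, *C3* and *C4b*, and *Cfb* and *C7* overlapped, and the other neighbors were apart. In Mmp13-/- *C3* (11.2 ± 1.71) stood above *C1qc* (9.73 ± 1.95) and *C4b* (6.19 ± 0.484) above *Cfd* (5.27 ± 1.43), with overlapping ranges in both pairs, as for *C1qa* and *C1qb* (17.4 ± 1.74) and for *Cfb* (0.834 ± 0.275) and *C7* (0.488 ± 0.143). C1q transcripts therefore stood above those of *C2*, *C4b*, *Cfb* and *C7* in both genotypes on this scale. In CPM the WT means of *C1qa*, *C1qb* and *C1qc* were 21.5, 15.5 and 21.5 and that of *C4b* was 36.2. The order thus depends on the exon length used.

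Of the settings tried, those with a correction for GC content moved the count of calls among the 9 the most. The 9 components had a GC content of 47.2% to 59.5% (median 55.3%), against a median of 49.1% over tested genes, and genes of 50% to 55% and above 55% GC had median log2 fold changes of -0.26 and -0.74 as counted. After a smooth correction of each library for GC content, *C1qa* had 13.4, 14.9 and 17.4 corrected CPM in WT and 29.4, 33.0 and 28.5 in Mmp13-/-, a log2 fold change of 0.99 ± 0.13 (edgeR adjusted p = 0.00107). Corrected *C3* had 27.1, 30.8 and 42.0 in WT and 71.8, 73.6 and 63.5 in Mmp13-/-, a change of 1.07 ± 0.16 (edgeR adjusted p = 0.00215). *C1qb* changed by 1.15 ± 0.12 (edgeR adjusted p = 0.000526), *C1qc* by 0.68 ± 0.14 (edgeR adjusted p = 0.00729) and *C4b* by 0.67 ± 0.11 (edgeR adjusted p = 0.00258). *C2*, *Cfb*, *C7* and *Cfd* did not pass, at 0.15, 0.56, -0.11 and -0.01. Without Mmp13-/- replicate 6 the same correction gave 1.04 for *C1qa*, 1.17 for *C1qb* and 1.13 for *C3*, with all 3 called, against 18.2% of tested genes, and with background reads subtracted as well the same 3 were called at 1.03, 1.19 and 1.10, against 15.3%. Subtracting background reads alone left 0 of 9 called (24.6% of tested genes), with *C1qb* (0.45) and *C3* (0.66) passing at any fold (49.1%). Between the counts as deposited and the GC correction alone, the sign of the estimate differed for *C1qa*, *C1qc*, *C2* and *C4b*. It was positive in both for *C1qb*, *C3* and *Cfb* and negative in both for *C7* and *Cfd*. Estimates near 0 for their SE, among them *C1qa* and *Cfb* as counted and *Cfd* after the correction, give no direction. Whether the association of change with GC content is technical was not tested.

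**Figure D2:**
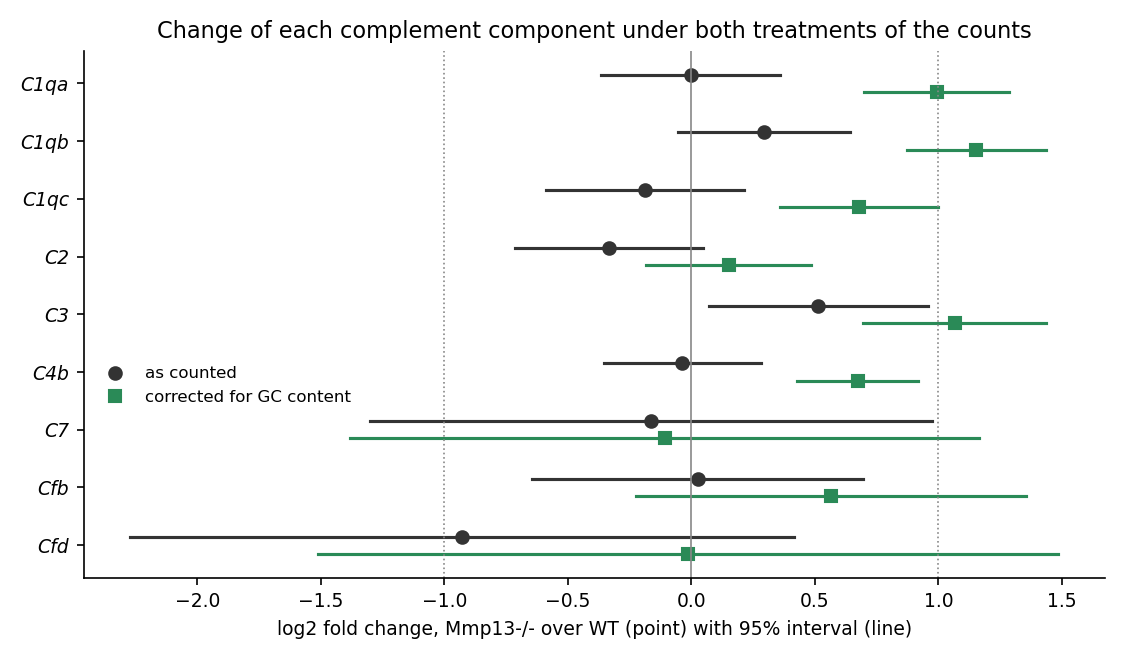
Log2 fold change of each component (Mmp13-/- over WT, n = 3 each) with its 95% interval, for the counts as deposited (black circles) and after correction of each library for GC content (green squares), with dotted lines at 2-fold. As counted, every interval but that of C3 includes 0, and after correction the intervals of C1qa, C1qb, C1qc, C3 and C4b lie above 0.

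**Figure D3:**
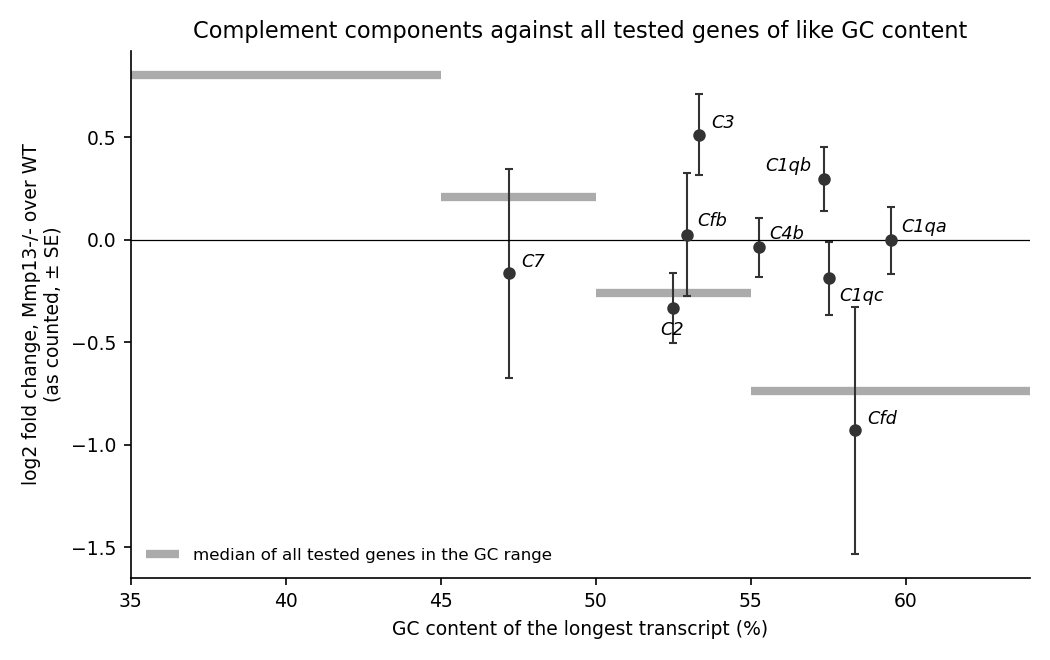
Log2 fold change as counted (± SE, Mmp13-/- over WT) of each component against the GC content of its longest transcript in percent. Gray bars give the median of all tested genes up to 45%, from 45% to 50%, from 50% to 55% and above 55% GC, with the outer ranges drawn to the edge of the plot, and the points of all components but C2, C7 and Cfd lie above the bar of their range.

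The wider complement system held 43 further genes, of which 35 passed the filter on low counts. Of these 13 were called higher and 1 lower in Mmp13-/-, 40.0% of those tested, where 20.4% of all tested genes were called higher and 9.68% lower. Among the 13 were *Hc*, *C6* and *C8a*, near 0 in every WT sample, which passed the filter through Mmp13-/- and could only be called higher. With at least 10 counts required in every sample, 11 of 29 further genes were called, all higher (37.9%). That setting gave 3006 calls higher and 1660 lower over 19564 tested genes. The 35 further genes had a median log2 fold change of 0.87, also with 3 genes near 0 in WT set at their lower bounds. With each library corrected for GC content, this set had 12 calls higher and 0 lower, 34.3% of its tested genes. The same treatment gave 4003 calls higher and 756 lower over all 24534 tested genes, 19.4% in either direction. The branches below follow textbook lists.

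In the classical pathway, 1 of the 5 further genes tested was called (*C1s2*) and 2 passed at any fold (*C1s2* and *C1s1*), both encoding C1s, a protease of that pathway. Over all tested genes 30.1% were called and 51.6% passed at any fold. *C1s1* had 46.2, 32.6 and 38.8 CPM in WT and 67.0, 89.2 and 65.0 in Mmp13-/-, a log2 fold change of 0.91 ± 0.18 (edgeR adjusted p = 0.00241) and 0.91 after the GC correction. *C1s1* and *C1s2* share 33.5% and 40.4% of their 31-base words with each other. In the lectin pathway, 2 of 5 tested genes were called (30.1% of all tested genes), both ficolins, which bind sugars on microbes. *Fcna* rose from 0.714, 1.07 and 1.39 CPM to 3.22, 3.29 and 3.17 (log2 fold change 1.61 ± 0.30, edgeR adjusted p = 0.00179) and *Fcnb*, a ficolin of the neutrophil lineage, from 0.814, 2.46 and 2.77 to 12.2, 14.8 and 4.90 (2.41 ± 0.47, edgeR adjusted p = 0.00213). *Cfp* (properdin), the 1 other tested gene of the alternative pathway, had a log2 fold change of -0.01 ± 0.19 (edgeR adjusted p = 0.984) as counted and 0.77 after the GC correction (edgeR adjusted p = 0.00985).

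Beside *C7*, the terminal pathway had 3 of 4 tested genes called, against 30.1% of all tested genes. These were *Hc* (which encodes C5), *C6* and *C8a*, and all 3 had 3 counts or fewer in every WT sample. Against a floor of 3 counts per library they were at least 10.8-fold, 7.55-fold and 8.25-fold higher in Mmp13-/-, and without replicate 6 at least 6.10-fold, 5.22-fold and 5.32-fold. The background rate would account for 81.1%, 76.8% and 68.0% of their counts in replicate 6, and for 28.6% to 56.5% in replicates 1 and 2. After its subtraction *Hc* and *C6* no longer passed the filter. *C8g* did not pass (-0.39 ± 0.30, edgeR adjusted p = 0.306).

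Regulators and receptors held the most calls. Of the soluble and of the membrane regulators 2 of 6 each were called, 33.3% against 30.1% of all tested genes. *Clu*, clusterin, which blocks pore assembly, was the most abundant soluble regulator and fell from 602, 690 and 681 CPM to 347, 348 and 234 (-1.09 ± 0.21, edgeR adjusted p = 0.00208), but was at -0.36 and did not pass after the GC correction (edgeR adjusted p = 0.0774). Of 6 membrane regulators tested, 5 passed at any fold (51.6% of all tested genes), all higher as counted. They included *Cd46* (0.98 ± 0.23, edgeR adjusted p = 0.00552) and *Cr1l* (0.48 ± 0.13, edgeR adjusted p = 0.0132). After the GC correction 2 membrane regulators passed higher and 1 lower with 0 called, where 37.0% of all tested genes passed and 19.4% were called. *Cd46* was then at 0.11 and did not pass (edgeR adjusted p = 0.648), and *Cr1l* was at -0.57 and passed in the opposite direction. Of 8 receptors tested, 4 were called, all higher, against 30.1% of all tested genes. They were *Itgam* and *Itgb2* (the chains of complement receptor CR3), *Cr2* and *C3ar1*. *C3ar1*, the receptor of the C3a fragment, had 2.29, 2.07 and 2.04 CPM in WT and 5.14, 6.02 and 5.23 in Mmp13-/- (1.36 ± 0.20, edgeR adjusted p = 0.000563; 0.95 after the GC correction). *Cd93* did not pass (-0.21 ± 0.18, edgeR adjusted p = 0.367).

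**Figure D4:**
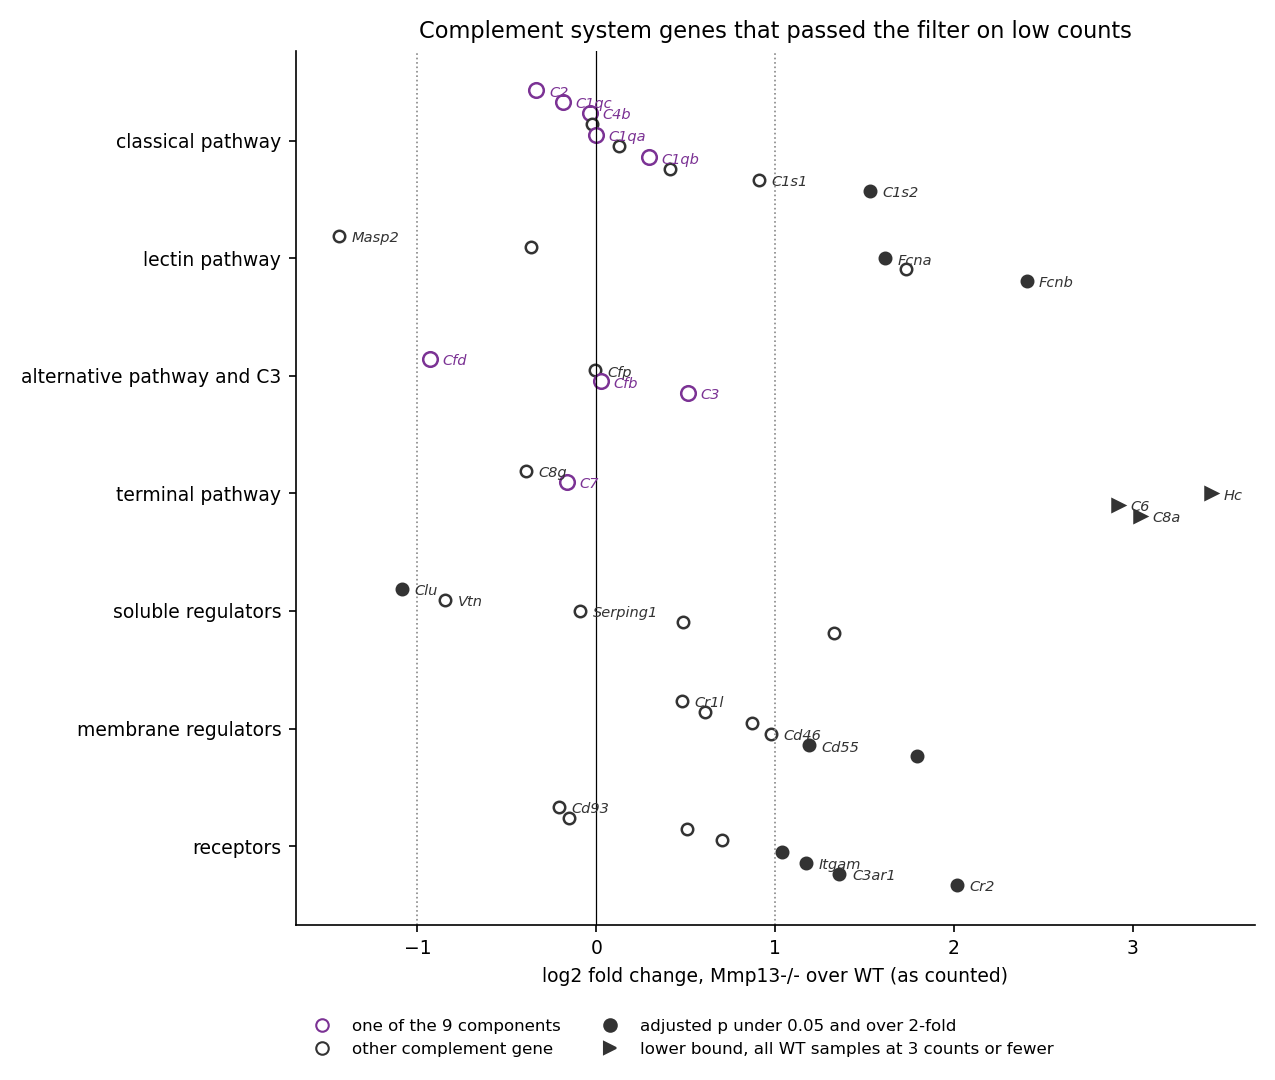
Log2 fold change (Mmp13-/- over WT, as counted) of 43 of the 44 complement genes that passed the filter (1 called gene is not drawn), by branch, with the 9 components in purple, filled markers for genes called at adjusted p under 0.05 and over 2-fold, and triangles for lower bounds of genes with 3 counts or fewer in every WT sample. None of the 9 components is filled, while 13 other genes are, most of them to the right of 0.

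Macrophage markers rose in Mmp13-/- pulp in samples where the C1q chains did not pass the test as counted. The summed level of 12 macrophage markers was 156 to 180 CPM in WT and 366 to 610 in Mmp13-/-. Of the 11 markers tested 7 were called (30.1% of all tested genes), all higher, with none lower. *Lyz2*, the largest of them and also a neutrophil gene, rose 3.04 ± 0.28 on the log2 scale (edgeR adjusted p = 7.49e-05), while *Csf1r*, *Cx3cr1*, *Cd68* and *Mertk* did not pass, at 0.44, 0.03, 0.33 and 0.37. Over the same samples *C1qa*, *C1qb* and *C1qc*, made chiefly by macrophages, were at -0.003, 0.29 and -0.19, and the Mmp13-/- samples of *C1qb* lay above those of WT. After the GC correction 10 of the 11 macrophage markers passed at any fold (37.0% of all tested genes), all higher, as did the 3 C1q genes. In bulk pulp, more cells of a type and more RNA per cell cannot be told apart. Neutrophil markers rose from summed levels of 136 to 283 CPM to 709 to 1737, with 8 of 8 called higher, against 20.4% of all tested genes. The part of neutrophils in the *C3* value was not tested.

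Hepatocyte markers were near 0, with a summed level of 10 genes of at most 4.25 CPM in WT and 11.2 in Mmp13-/-, *Alb* at 0 counts in all WT samples and *Cyp2e1* the largest. Adipocyte markers summed to 306 to 339 CPM in WT and 149 to 162 in Mmp13-/-, a difference carried by *Plin4*, which is abundant in muscle as well (-1.38 ± 0.15, edgeR adjusted p = 0.000142), while 4 of 8 passed higher. The 4 were *Adipoq* (2.09), *Retn* (2.05), *Lep* (1.76) and *Fabp4* (0.58). For this and the marker lists that follow, 51.6% of all tested genes passed at any fold. *Cidec* and *Plin1* did not pass, at -0.33 and -0.76. In WT replicates 2, 4 and 5 *Cidec* had 1.44, 0.619 and 2.99 CPM and *Plin1* 3.65, 2.26 and 5.88 CPM, and 6 of the 8 adipocyte markers, these included, ranked the 3 samples as *Cfd* did. *Cidec* and *Plin1* were picked after their values were seen, and the part of adipose tissue in the spread of *Cfd* was not tested. Summed fibroblast markers were 56002 to 64215 CPM in WT and 14318 to 18962 in Mmp13-/- (*Col1a1* -2.16 ± 0.34), but 3 of 7 passed higher, among them *Dcn* (2.03) and *Lum* (2.99), and 3 lower. Muscle markers summed to 42393 to 50775 and 7999 to 19015 CPM (*Myh1* -1.40 ± 0.37). Endothelial markers summed to 228 to 268 and 168 to 234 CPM, with 3 of 6 lower at any fold (*Kdr* -0.64 ± 0.18) and 1 higher (*Emcn*, 1.47). Odontoblast markers summed to 1452 to 2727 and 2453 to 3683 CPM, with 3 of 6 higher (*Dspp* 1.13 ± 0.40) and 2 lower, among them *Nes* (-1.21), so these transcripts were present in both genotypes. Muscle markers summed higher than odontoblast markers in every sample, and the share of each library that came from pulp was not tested.

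**Figure D5:**
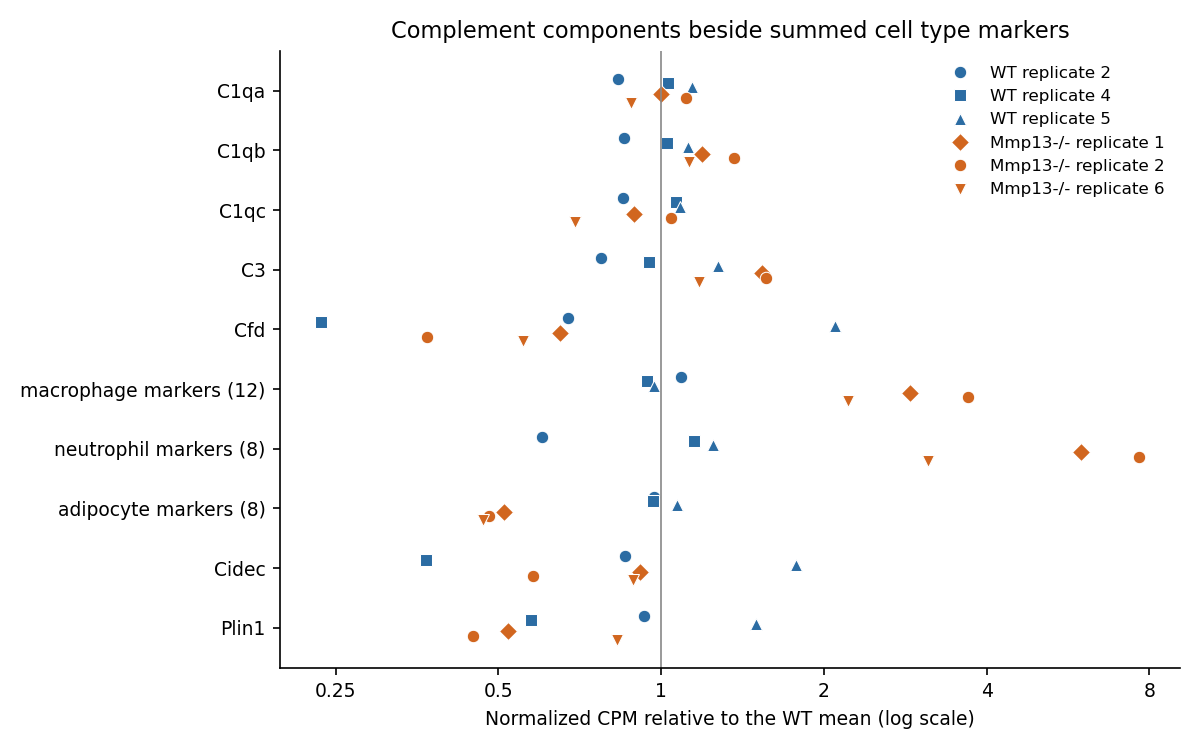
Normalized CPM relative to the WT mean (log scale) of C1qa, C1qb, C1qc, C3 and Cfd, of summed macrophage, neutrophil and adipocyte markers (number of genes in brackets), and of the adipocyte genes Cidec and Plin1, with 1 point for each WT (blue) and Mmp13-/- (orange) sample. Macrophage and neutrophil sums of all Mmp13-/- samples lie to the right of the WT samples, whereas C1qa, C1qc and Cfd overlap, and WT samples of Cfd, Cidec and Plin1 spread in the same order. Of the 8 adipocyte markers, 4 that are not drawn singly passed higher in Mmp13-/-.

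Of 12 known inducers of complement genes tested, 1 was called higher (*Il1b*, 1.39) and 3 lower, 33.3% against 30.1% of all tested genes. At any fold 7 passed, against 51.6% of all tested genes, with 6 of them lower, among them *Cebpb* (-1.75), *Cebpd* (-1.06), *Rela* (-0.84), *Nfkb1* (-0.65) and *Stat3*. *Cebpb* and *Cebpd* induce acute-phase genes, and *Rela* and *Nfkb1* encode NF-kappaB subunits. *Stat3*, which carries the interleukin-6 signal and was the most abundant of the list at 140 to 185 CPM in WT, was at 97.0 to 114 CPM in Mmp13-/- (-0.64 ± 0.17, edgeR adjusted p = 0.00906). After the GC correction *Stat3* was at -0.15 and did not pass, *Rela* was at 0.14 and did not pass, and the list had 3 genes higher and 3 lower at any fold.

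Outside the complement lists, the genes most like *C1qa* over the 6 samples were *Otulin* (Pearson r = 0.993 of log2 CPM), *Fes* (0.979) and *Stom* (0.962), out of 10794 genes searched, those whose mean log2 CPM exceeded 3. For *C3* they were *Slc37a2* (0.996), *Gpx1* (0.986) and *Cd177* (0.981), and for *Cfd* *Prpf31* (0.971), *Rhbdd1* (0.924) and *Gm43064* (0.923). Among the components themselves, *C1qb* and *C3* had an r of 0.951 and *C1qa* and *C1qc* 0.821, against 0.222 for *C1qb* and *C1qc*. These values describe 6 libraries that share depth and GC content effects, and with so few points many genes reach a high r.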

How the data were processed

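RNA sequencing of dental pulp was compared between 3 WT and 3 Mmp13-/- samples, grouped by the genotype in the labels. The authors aligned paired reads and quantified genes in Strand NGS, and deposited estimated counts per gene, which carry fractions. A second set of deposited values is on the log2 scale, which the authors scaled with DESeq size factors, raised to a minimum of 1 and centred gene by gene on the median. Build mm10 and DESeq are named in the submitters' processing notes, and the aligner is not given in the sources used here.

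Estimated counts were rounded and tested with edgeR 4.0.16 in R 4.3.3 (quasi-likelihood test, TMM factors, filterByExpr by genotype, Benjamini-Hochberg adjustment over all genes tested, no covariates). CPM are counts per 1000000 counts of the TMM-scaled library, and RPKM divides them by the length of all annotated exons of a gene together. Alternatives used limma 3.58.1, DESeq2 1.42.0, other factors and filters, a loess correction for transcript GC content (span 0.4, fitted to genes whose mean log2 CPM exceeded 3), subtraction of the receptor-gene background rate by exon length, and each sample left out in turn. The tests were tested on simulated data. Annotation came from GENCODE M21 of GRCm38, matched for 99.8% of genes. Satellite transcripts are the 13 genes that share over 50% of their 11-base words with *Gm10800*. SD describes the spread between samples, and SE is the standard error of the fitted log2 fold change. Totals of 21561420 to 29980236 counts limit low genes, for which 3 counts correspond to 0.0950 to 0.173 CPM.

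The 9 components and the gene lists were chosen with earlier results of these data known. Other genes are named by a rule, which takes in each list the gene with the highest mean CPM and, for complement branches, also the gene with the smallest adjusted p and genes at 0 in WT that passed. *C1s2*, *C6*, *C4a*, *Itgam*, *Itgb2*, *Cr2*, *Csf1r*, *Cx3cr1*, *Cd68*, *Mertk*, *Alb*, *Adipoq*, *Retn*, *Lep*, *Fabp4*, *Cidec*, *Plin1*, *Dcn*, *Lum*, *Emcn*, *Nes*, *Il1b*, *Cebpb*, *Cebpd*, *Rela*, *Nfkb1*, *Gm20547* and *Zbtb12* fall outside it and were named after their values were seen. The motifs and the C1q ratios were also chosen after the data were seen. *Itgam* has 2 rows in the table, and the row with more counts was used. Some genes of the lists count in the totals but are not reported here.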

Additional observations from a re-analysis of the deposited data

How the results depend on the processing

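As counted, 0 of the 9 components were called. The count was 1 without a filter on low counts (*Cfd*, -1.04), 2 with the GC correction, 3 with the GC correction and background subtraction together, and 3 with the GC correction without Mmp13-/- replicate 6, a setting chosen after seeing the data. With each sample left out it was 0 to 1. Of the 52 complement genes 44 were tested and 14 called (31.8%, against 30.1% of all tested genes). With each sample left out 12 to 17 were called. In a test against a 2-fold change itself 6 of the 44 were called (13.6%). That test called 2379 of all 24534 tested genes higher and 668 lower.

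Signs changed between settings for *C1qa*, *C1qc*, *C2*, *C4b*, *C7*, *Cfb* and *Cfd*, and not only for values near 0. As counted, *C2* was at -0.33 and *Cfd* at -0.93. Under the GC correction *C1qa*, *C1qc* and *C4b* changed sign to values that passed at any fold (edgeR adjusted p = 0.00107, 0.00729 and 0.00258). *C1qa* was 0.0072 with RLE factors, 0.20 with upper-quartile factors, 0.12 with total counts, 0.0075 with factors taken without satellite-like and the 10 most abundant genes, 0.12 with at least 10 counts in every sample, 0.15 with background subtraction, 0.99 with the GC correction, 1.03 with both corrections and 1.04 with the GC correction without replicate 6. *C1qc* was 0.0088 with upper-quartile factors, 0.68 with the GC correction, 0.70 with both corrections and 0.78 with the GC correction without replicate 6, and *C2* 0.15, 0.10 and 0.14 under those 3 corrections. *C4b* was 0.17 with upper-quartile factors, 0.072 with total counts, 0.087 with at least 10 counts, 0.10 with background subtraction, 0.67 with the GC correction, 0.69 with both and 0.64 with the GC correction without replicate 6. *C7* was 0.070 with upper-quartile factors and 0.010 with limma and with the gene-by-gene test and Storey's q. *Cfb* was -0.094 without a filter, -0.019 with DESeq2, -0.063 with limma and with the gene-by-gene test, -0.025 with background subtraction and -0.033 with *Gm20547* counts added, and *Cfd* was 0.0027 with both corrections. With each sample left out *C1qa* ranged from -0.19 to 0.080, *C1qb* from 0.12 to 0.35, *C1qc* from -0.39 to -0.05, *C2* from -0.51 to -0.28, *C3* from 0.29 to 0.65, *C4b* from -0.21 to -0.01, *C7* from -0.62 to 0.17, *Cfb* from -0.25 to 0.13 and *Cfd* from -1.44 to 0.14. The cause of these changes was not tested.

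*C3* kept its sign in all 20 alternatives and passed at any fold in 10 of them, and *C1qb* kept its sign and passed in 6. The median log2 fold change over all tested genes was 0.10 as counted, 0.32 with upper-quartile factors, 0.21 with total counts or the GC correction and over 1 without a filter. The share of called genes that were higher was 67.8% as counted, 81.4% with upper-quartile factors, 76.9% with total counts, 84.1% with the GC correction, 78.6% without a filter, 78.3% with DESeq2, 80.0% with the gene-by-gene test and 78.1% in the test against a 2-fold change. No paired analysis was carried out because the sources used here describe no pairing of samples between the genotypes. Counts of 14.0 to 78.4 limit *C7* and *Cfb* in every sample.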
